A study of Mus musculus with 9 samples.

Results

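The respiratory chain genes of the nuclear genome were followed through 3 kinds of mouse cells: embryonic fibroblasts, induced pluripotent stem cells made from such fibroblasts, and embryonic stem cells. The set comprised every gene whose probe set carried exactly 1 gene symbol and whose symbol began with Ndufa, Ndufb, Ndufc, Ndufs, Ndufv or Ndufaf and a number, was Sdha, Sdhb, Sdhc or Sdhd, or began with Uqcr, Cox4 to Cox8 or Atp5. This gave 88 of 19938 genes, with 42 of complex I and its assembly factors, 4 of complex II, 8 of complex III, 17 of complex IV and 17 of complex V. Genes were assigned to complexes by symbol, so Ndufa4 and Ndufa4l2 stand with complex I. Where a gene had several probe sets, the one with the highest mean signal stood for it.

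The series held 9 Affymetrix whole-transcript arrays in 3 groups of 3. The MEF group was mouse embryonic fibroblasts in culture at a passage below 3, which the labels name as the source of the iPS cells. The R1 group was the mouse embryonic stem cell line R1, and the iPS group was made from MEF and is labelled inducible pluripotent stem cell. The sources used here do not give the strain, the age of the embryos, the reprogramming factors, the culture medium or the number of iPS clones, and R1 is a single line. Arrays of a group are called biological repeats, but no separate culture or animal is named for them. The p-values therefore measure how far these arrays scatter, which may be partly technical.

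The respiratory chain sits in the inner mitochondrial membrane. Complex I takes electrons from NADH and complex II takes them from succinate, both pass them to ubiquinone, complex III hands them to cytochrome c, complex IV reduces oxygen, and complex V, the ATP synthase, uses the resulting proton gradient. Pluripotent stem cells are known for small mitochondria with few cristae and for strong glycolysis, and fibroblasts for branched mitochondrial networks. Most subunits are made from nuclear genes, and several subunits of complex IV exist as a general isoform and as an isoform known from particular tissues such as muscle or testis.

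Array medians lay between 78.2 and 83.3 signal units, correlations of arrays within a group, taken across genes, between 0.9952 and 0.9978, and no array stood apart. Of 9 markers of pluripotent cells all rose in iPS cells and in R1 cells against MEF. Of 12 fibroblast markers 11 fell and 1 rose in both, and their summed signal was 39700 to 45380 in MEF, 6239 to 7446 in R1 and 7079 to 7981 in iPS arrays. Skeletal muscle markers had summed signals of 6861 to 8274 in MEF, against 923.6 to 1079 in R1 and 990.7 to 1264 in iPS arrays. Detection calls were not used, so a dim signal was not told apart from background. Of the 88 members 1, Cox7b2, had a mean signal under 50, against 30.1% of all genes.

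Most respiratory chain genes changed little, and those that changed were mostly higher in the pluripotent cells. In iPS cells against MEF 38 members rose and 6 fell at an adjusted p under 0.05, where 24.8% of all genes rose and 23.2% fell (48.0% passed in all), so that 43.2% of the members rose and 6.82% fell. In R1 cells against MEF 41 rose and 7 fell, which is 46.6% and 7.95% of the members, beside 25.9% and 23.0% of all genes (48.9% in all). Among genes with a mean signal of 50 or more, to which 87 members belong, 33.4% rose and 30.9% fell in iPS cells and 34.8% and 30.6% in R1 cells. The arrays of the groups did not overlap for 49 members (55.7%) in iPS cells against MEF, beside 52.3% of all genes. In R1 cells against MEF they did not overlap for 60 members (68.2%), beside 54.4%. Of the 13944 genes with a mean signal of 50 or more, 9470 and 9809 did not overlap, a larger share than of the members in both comparisons. In bulk samples such as these, a change in the share of cells that carry an RNA and a change in RNA per cell cannot be told apart. Each array's median was set equal in 1 alternative, and the split in iPS cells then became 29 higher and 10 lower.

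The sizes were small. The median difference of log2(signal + 16) over the 88 members was 0.13 in iPS cells and 0.17 in R1 cells against MEF, beside medians of 0.02 and 0.02 over all genes. The middle range from the lower to the upper quartile ran from 0.001 to 0.31 for the members in iPS cells and from -0.15 to 0.20 for all genes. A difference under 0.5 was found for 88.6% of members and 71.7% of all genes in iPS cells against MEF, and for 88.6% and 71.0% in R1 cells. Among the genes with a mean signal of 50 or more that share was 60.6% and 59.6%. At least a 2-fold change (a log2 difference of 1 or more with an adjusted p under 0.05) was called for 2 members in iPS cells, where 12.7% of all genes were called (5.08% higher and 7.58% lower), and for 3 members in R1 cells, where 13.5% were (5.56% higher and 7.94% lower). Of the genes with a mean signal of 50 or more, 17.9% and 19.1% were called. All of the members called were higher. The members called were Cox6b2 and Cox7a1 in both, and Ndufa4l2 in R1 cells.

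Both comparisons use the same MEF arrays, so their results are set side by side and not counted as independent. Against MEF 33 members rose in both lines and 6 fell in both, 0 passed in opposite directions, and 35 passed in neither. A further 5 rose in iPS cells alone and 8 in R1 cells alone, and 1 fell in R1 cells alone. For 5 of these 14 members the difference between iPS and R1 cells itself passed.

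**Figure D1:**
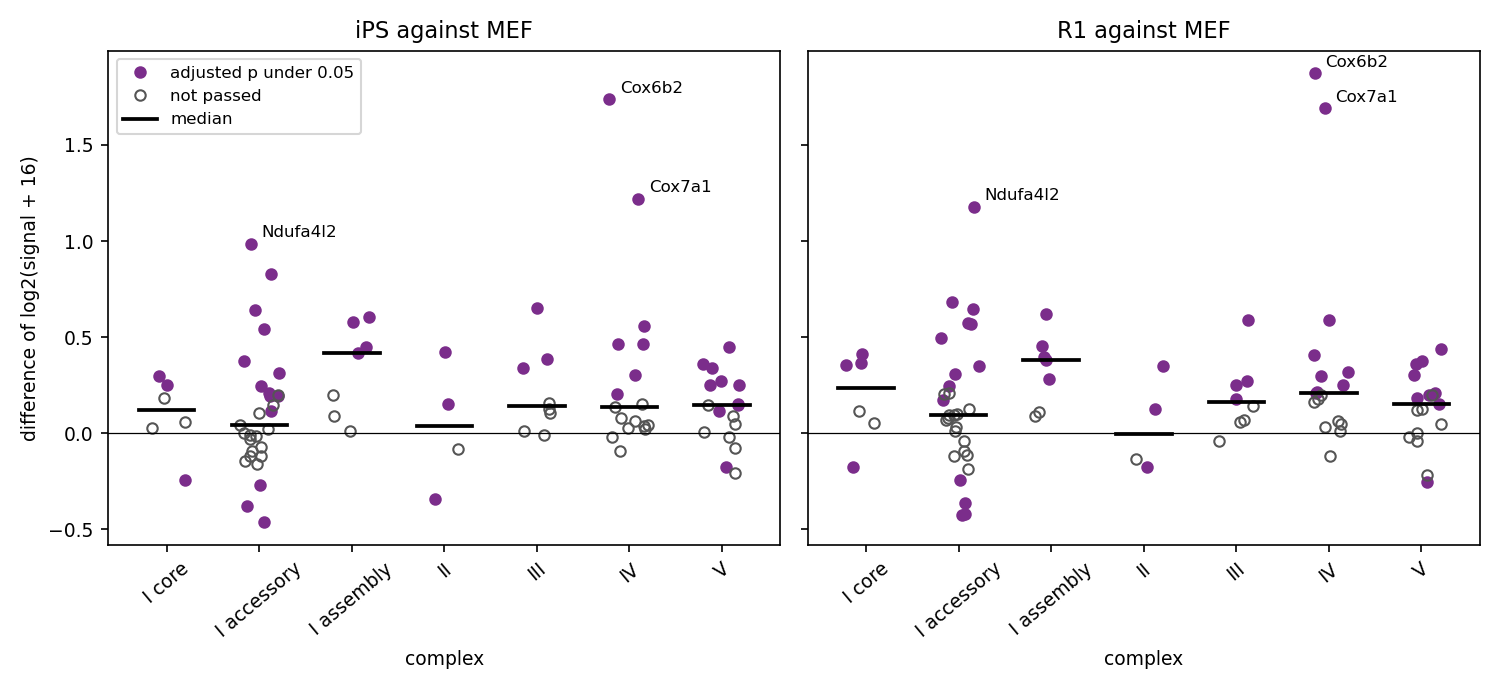
Difference of log2(signal + 16) of each of the 88 members in iPS cells (left) and R1 cells (right) against MEF, by complex, with filled points for an adjusted p under 0.05, open points for the rest, and bars for the median of each class. Most points lie between -0.5 and 0.5, and Cox6b2, Cox7a1 and Ndufa4l2 stand above the other members in both panels.

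Complex I, the NADH dehydrogenase, is built from core subunits that carry the redox centres and many accessory subunits. The counts of each complex below are to be set beside the shares over all genes. Those were 24.8% rising and 23.2% falling in iPS cells against MEF, and 25.9% and 23.0% in R1 cells. Among genes with a mean signal of 50 or more, 33.4% rose and 30.9% fell in iPS cells, and 34.8% and 30.6% in R1 cells. Of the 6 core subunits measured, 2 rose and 1 fell in iPS cells and 3 rose and 1 fell in R1 cells, with median differences of 0.12 and 0.24. Ndufs1, which holds iron-sulfur clusters of the arm that oxidises NADH, had signals of 968.8, 962.1 and 1010 in MEF, 1226, 1305 and 1269 in R1, and 1082, 1226 and 1201 in iPS arrays. Every pluripotent array was above every MEF array, and Ndufs1 rose by 0.25 ± 0.06 (SE of the fit; adjusted p = 0.00393) in iPS cells and by 0.36 ± 0.06 (adjusted p = 0.00033) in R1 cells. Ndufv1, the flavoprotein that binds NADH, rose by 0.30 ± 0.07 and 0.41 ± 0.07. Its partner Ndufv2 rose in R1 cells (0.36 ± 0.08, adjusted p = 0.00412) and differed by 0.18 ± 0.08 in iPS cells (adjusted p = 0.0924), where its lowest array equalled the highest MEF array at 1067.

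Ndufs8, a core subunit with iron-sulfur clusters close to the membrane, had signals of 418.8, 494.6 and 451.9 in MEF, 388, 410.1 and 401.7 in R1, and 364.6, 398.9 and 380 in iPS arrays. It fell by 0.24 ± 0.06 in iPS cells (adjusted p = 0.0095) and was at -0.18 ± 0.06 in R1 cells (adjusted p = 0.044), a result that did not pass in 8 of 15 alternatives. Ndufs3, a subunit of the arm that links to the membrane, at 0.06 ± 0.05 and 0.12 ± 0.05, and Ndufs7, at 0.03 ± 0.04 and 0.06 ± 0.04, did not pass in either line. None of the 6 core subunits differed between iPS and R1 cells at the threshold in limma's test, and their differences lay between -0.17 and -0.03.

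By symbol, 29 genes were counted as accessory subunits. Among them were Ndufa4, now counted with complex IV, and its relative Ndufa4l2. The 29 differences ran from -0.46 to 0.99 in iPS cells and from -0.43 to 1.18 in R1 cells. The upper end was Ndufa4l2 in both, and without it the upper ends were 0.83 (Ndufs6) and 0.68 (Ndufa7). In iPS cells 11 rose, Ndufa4 and Ndufa4l2 included, and 3 fell. In R1 cells 10 rose, Ndufa4l2 included, and 4 fell. The largest rise after Ndufa4l2 in iPS cells was that of Ndufs6, a small zinc-binding subunit. Its signals were 367.1, 385.3 and 382.7 in MEF, 584.1, 592.2 and 626 in R1, and 670.9, 719.1 and 666.3 in iPS arrays, without overlap between any of the groups. The differences against MEF were 0.83 ± 0.05 (adjusted p = 4.22e-07) in iPS cells and 0.65 ± 0.05 (adjusted p = 2.21e-06) in R1 cells. Ndufa7 rose by 0.64 ± 0.09 and 0.68 ± 0.09, Ndufv3, which sits beside the NADH site, by 0.54 ± 0.07 and 0.57 ± 0.07, and Ndufa6 by 0.38 ± 0.06 and 0.57 ± 0.06.

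In the other direction moved Ndufs5, whose signals were 222.9, 233.9 and 212.3 in MEF, 158.7, 158.7 and 167.7 in R1, and 150.1, 174.9 and 148.1 in iPS arrays. It fell by 0.46 ± 0.07 in iPS cells (adjusted p = 0.0002) and by 0.43 ± 0.07 in R1 cells (adjusted p = 0.000339). Ndufa8, like Ndufs5 a subunit with disulfide-bonded helices on the side of the intermembrane space, fell by 0.38 ± 0.05 and 0.24 ± 0.05. Ndufc2, a membrane subunit, fell by 0.27 ± 0.05 and 0.36 ± 0.05. Subunits of complex I thus moved both ways within the same arrays.

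The assembly factors of complex I help to build the enzyme and are not part of it. Of 7 measured 4 rose in iPS cells and 5 in R1 cells, 0 fell, and the median differences were 0.42 and 0.38. Ndufaf1, a chaperone of the membrane arm, had signals of 237.2, 256 and 210.8 in MEF, 308.7, 306.6 and 313 in R1, and 333.1, 367.1 and 396.2 in iPS arrays. The groups did not overlap, and Ndufaf1 rose by 0.61 ± 0.08 in iPS cells (adjusted p = 9.25e-05) and by 0.38 ± 0.08 in R1 cells (adjusted p = 0.0021). Ndufaf3 rose by 0.58 ± 0.10 and 0.62 ± 0.10, Ndufaf7, a methyltransferase that acts on a core subunit, by 0.45 ± 0.07 and 0.40 ± 0.07, and Ndufaf6 by 0.42 ± 0.10 and 0.45 ± 0.10. Ndufaf2 rose in R1 cells (0.28 ± 0.08, adjusted p = 0.0161; it did not pass with the array medians set equal or without MEF replicate 1) and was at 0.20 ± 0.08 in iPS cells. Ndufaf4 (0.01 and 0.09) and Ndufaf5 (0.09 and 0.11) did not pass, and their iPS arrays overlapped with MEF.

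Complex II, succinate dehydrogenase, is also an enzyme of the tricarboxylic acid (TCA) cycle, and Sdha and Sdhb form its catalytic part while Sdhc and Sdhd anchor it in the membrane. Its 4 subunits did not move together. All 4 passed in iPS against R1 cells, 2 higher and 2 lower, where 8.52% of all genes passed. The arrays of iPS and R1 cells did not overlap for any of the 4, beside 21.9% of all genes. Among the 13944 genes with a mean signal of 50 or more, 3955 did not overlap. Sdhb was highest in MEF and lowest in iPS cells. Sdhd had the larger of the rises in iPS cells against MEF, and Sdhc in R1 cells against MEF.

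Sdhc had signals of 955.4, 1038 and 1010 in MEF, 1333, 1252 and 1261 in R1, and 855.1, 982.3 and 1003 in iPS arrays, so that R1 stood above the other groups, which overlapped. It was lower in iPS than in R1 cells by a log2 difference of -0.43 ± 0.07 (adjusted p = 0.00471). Sdhd had signals of 744.4, 699.4 and 754.8 in MEF, 809, 809 and 786.9 in R1, and 996, 996 and 968.8 in iPS arrays. The groups did not overlap, and Sdhd was higher in iPS than in R1 cells by 0.30 ± 0.04 (adjusted p = 0.00435) and than in MEF by 0.42 ± 0.04 (adjusted p = 2.35e-05). The 2 membrane anchors thus differed in opposite directions between the pluripotent lines.

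Of the catalytic subunits, Sdha had signals of 1859, 1698 and 1924 in MEF, 1652, 1698 and 1641 in R1, and 2020, 1992 and 2077 in iPS arrays. MEF and R1 met at 1698, and iPS arrays were above both. Sdha was higher in iPS than in R1 cells by 0.28 ± 0.05 (adjusted p = 0.0113), and its differences against MEF were 0.15 ± 0.05 in iPS cells (adjusted p = 0.0384, not passed in 10 of 15 alternatives) and -0.13 ± 0.05 in R1 cells (adjusted p = 0.0661). Sdhb, the iron-sulfur subunit, had signals of 487.8, 519.1 and 501.5 in MEF, 436.5, 451.9 and 439.6 in R1, and 382.7, 401.7 and 393.4 in iPS arrays. It fell by 0.34 ± 0.04 in iPS cells against MEF (adjusted p = 8.49e-05) and by 0.18 ± 0.04 in R1 cells against MEF (adjusted p = 0.00635). The difference of Sdhb between iPS and R1 cells, -0.17 ± 0.04 (adjusted p = 0.0458), did not pass in 11 of 15 alternatives, while those of Sdha, Sdhc and Sdhd passed in all 15. The rise of Sdhd in R1 cells against MEF (0.13 ± 0.04, adjusted p = 0.0378) did not pass in 11 of 15.

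**Figure D2:**
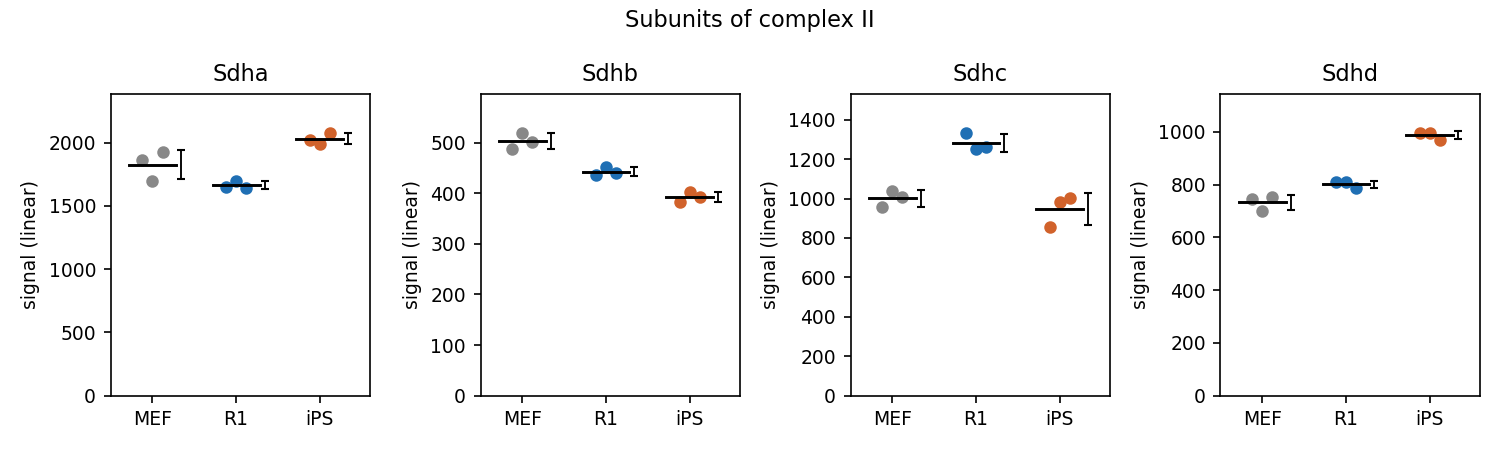
Linear signal of the 4 subunits of complex II in each of the 9 arrays, with points for arrays, bars for the group mean and whiskers for the SD of 3 arrays. The iPS arrays are the highest for Sdha and Sdhd and the lowest for Sdhb, and the R1 arrays are the highest for Sdhc.

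Complex III passes electrons from ubiquinol to cytochrome c. Of its 8 genes that met the rule 3 rose in iPS cells, 4 rose in R1 cells and 0 fell. Cyc1, its cytochrome c1, lies outside the rule and was counted with the electron carriers. Against MEF Cyc1 rose by 0.36 ± 0.07 in iPS cells (limma, adjusted p = 0.00141) and by 0.33 ± 0.07 in R1 cells (adjusted p = 0.00238). The core proteins that form the bulk of the enzyme in the matrix did not pass: Uqcrc1 was at 0.11 ± 0.05 and 0.14 ± 0.05 in iPS and R1 cells against MEF and Uqcrc2 at -0.01 ± 0.04 and 0.07 ± 0.04. The Rieske iron-sulfur protein Uqcrfs1 was at 0.16 ± 0.07 in iPS cells (adjusted p = 0.0825) and at 0.18 ± 0.07 in R1 cells (adjusted p = 0.0489, not passed in 11 of 15 alternatives). Uqcrq, a small subunit, rose in R1 cells (0.25, adjusted p = 0.00506) and was at 0.12 in iPS cells (adjusted p = 0.117), and Uqcrh was at 0.01 and -0.04 and did not pass.

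Uqcr10, a small membrane subunit, had signals of 286, 324 and 286 in MEF, 471.1, 448.8 and 451.9 in R1, and 436.5, 515.6 and 481 in iPS arrays. Every pluripotent array was above every MEF array, with differences of 0.65 ± 0.07 (adjusted p = 2.87e-05) in iPS cells and 0.59 ± 0.07 (adjusted p = 5.32e-05) in R1 cells. Uqcr11 rose by 0.39 ± 0.08 in iPS cells, where its other probe set showed a difference of 0.08, and by 0.27 ± 0.08 in R1 cells, not passed in 5 of 15 alternatives. Uqcrb, which lies near the ubiquinone site, rose in iPS cells (0.34 ± 0.07, adjusted p = 0.00299) and not in R1 cells (0.06 ± 0.07). Its difference between iPS and R1 cells was 0.28 ± 0.07 (adjusted p = 0.0464), which did not pass in 9 of 15 alternatives.

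Complex IV, cytochrome c oxidase, held the largest changes of the set, in isoforms known from particular tissues. Of its 17 genes 7 rose in iPS cells, 9 rose in R1 cells and 0 fell, with medians of 0.14 and 0.21. Cox6b2, an isoform of subunit 6b known from testis, had signals of 87.4, 72.5 and 95.7 in MEF, 374.8, 357.1 and 328.6 in R1, and 300.2, 352.1 and 310.8 in iPS arrays. All pluripotent arrays lay above all MEF arrays, by 3.34-fold in iPS cells (a log2 difference of 1.74 ± 0.09, adjusted p = 2.15e-07) and 3.66-fold in R1 cells (1.87 ± 0.09, adjusted p = 1.15e-07), on the scale of log2(signal + 16). The arrays of iPS and R1 cells overlapped (-0.13 ± 0.09, adjusted p = 0.524). The general isoform Cox6b1, with signals of 797.9 to 1031 over all arrays, differed by -0.09 ± 0.08 and -0.12 ± 0.08 and did not pass.

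Cox7a1, the isoform of subunit 7a of heart and skeletal muscle, had signals of 61.8, 70.5 and 68.6 in MEF, 235.6, 298.2 and 227.5 in R1, and 174.9, 174.9 and 182.3 in iPS arrays. The 3 groups did not overlap, with R1 highest and MEF lowest. Cox7a1 rose by 1.22 ± 0.09 in iPS cells (adjusted p = 1.94e-06) and by 1.69 ± 0.09 in R1 cells (adjusted p = 1.84e-07), and it was lower in iPS than in R1 cells by -0.47 ± 0.09 (adjusted p = 0.0129). The general isoform Cox7a2 was at 709.2, 744.4 and 639.1 in MEF, 826, 879.2 and 873.1 in R1, and 935.8, 996 and 968.8 in iPS arrays. It rose by 0.46 ± 0.06 (adjusted p = 0.000114) and 0.30 ± 0.06 (adjusted p = 0.00222), with the iPS arrays highest. The third relative, Cox7a2l, known as a factor that joins complexes III and IV into supercomplexes, rose in R1 cells (0.25 ± 0.05, adjusted p = 0.000853) and was at 0.08 ± 0.05 in iPS cells. Its difference between iPS and R1 cells (-0.17 ± 0.05, adjusted p = 0.0459) did not pass in 13 of 15 alternatives.

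Markers of the tissues that these isoforms are known from moved as follows. Of 12 skeletal muscle markers 10 fell in both pluripotent lines against MEF. Cox7a1 was lowest in the MEF arrays, and the part of muscle markers in its result was not tested. Other muscle isoforms, Cox6a2 (0.03 ± 0.07 in iPS and 0.01 ± 0.07 in R1 cells) and Cox8b (0.04 ± 0.06 and 0.03 ± 0.06), did not pass. Cardiac muscle markers had 1 of 7 higher and 1 lower in iPS cells and 2 higher and 1 lower in R1 cells. Germ cell markers rose for 5 of 7 in iPS cells and 4 of 7 in R1 cells, with summed signals of 197.9 to 211.5 in MEF, 914 to 1129 in R1 and 681 to 957.2 in iPS arrays, and their part in the result for Cox6b2 was not tested. Ddx4, Dazl, Mael and Sycp3 rose in both lines, and Tex101 rose in iPS cells (0.24, adjusted p = 0.00856) and was at 0.14 in R1 cells (adjusted p = 0.0911). Prm1 (-0.01 and 0.03 in iPS and R1 cells) and Tnp1 (-0.04 and 0.00) did not pass. The other isoforms known from testis, Cox8c (0.14 ± 0.08 and 0.18 ± 0.08) and Cox7b2 (0.06 ± 0.06 in both, at signals of 14.8 to 19.2), did not pass.

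Ndufa4l2, a relative of Ndufa4 known to be induced by low oxygen, had signals of 90.5, 65.8 and 75.1 in MEF, 183.5, 186.1 and 212.3 in R1, and 141, 173.6 and 191.3 in iPS arrays. It rose by 1.18 ± 0.12 in R1 cells (adjusted p = 1.73e-05) and by 0.99 ± 0.12 in iPS cells (adjusted p = 6.57e-05), which is just under the 2-fold call. Ndufa4, first assigned to complex I and now counted with complex IV, was at 0.12 ± 0.04 in iPS cells (adjusted p = 0.0326, not passed in 9 of 15 alternatives) and at 0.03 ± 0.04 in R1 cells. Of the isoforms of subunit 4, the differences were small, with Cox4i1 at 0.20 ± 0.05 and 0.22 ± 0.05 (adjusted p = 0.00875 and 0.00601; the first did not pass with array medians set equal) and the lung isoform Cox4i2 at -0.02 ± 0.07 and 0.16 ± 0.07, not passed. Of the 8 isoforms fixed as tissue-restricted, Ndufa4l2 among them, 3 rose in each line. In iPS and R1 cells 43.2% and 46.6% of all members rose, and 24.8% and 25.9% of all genes. Of genes with a mean signal of 50 or more, 33.4% and 34.8% rose, so the count of 3 was near that share. Of the 8 genes fixed as general isoforms, Cox7a2l among them, 4 rose in iPS cells and 5 in R1 cells.

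Among the general subunits of complex IV, Cox5a rose by 0.56 ± 0.09 and 0.59 ± 0.09, with signals of 639.1 to 770.7 in MEF and 968.8 to 1144 over the arrays of both pluripotent lines. Cox7b rose by 0.46 ± 0.08 and 0.41 ± 0.08, and Cox6c by 0.30 ± 0.05 and 0.32 ± 0.05. Cox8a rose in R1 cells (0.21 ± 0.07, adjusted p = 0.0262, not passed in 4 of 15 alternatives) and was at 0.15 ± 0.07 in iPS cells. Cox6a1 was at 0.02 ± 0.08 and 0.20 ± 0.08 and did not pass.

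**Figure D3:**
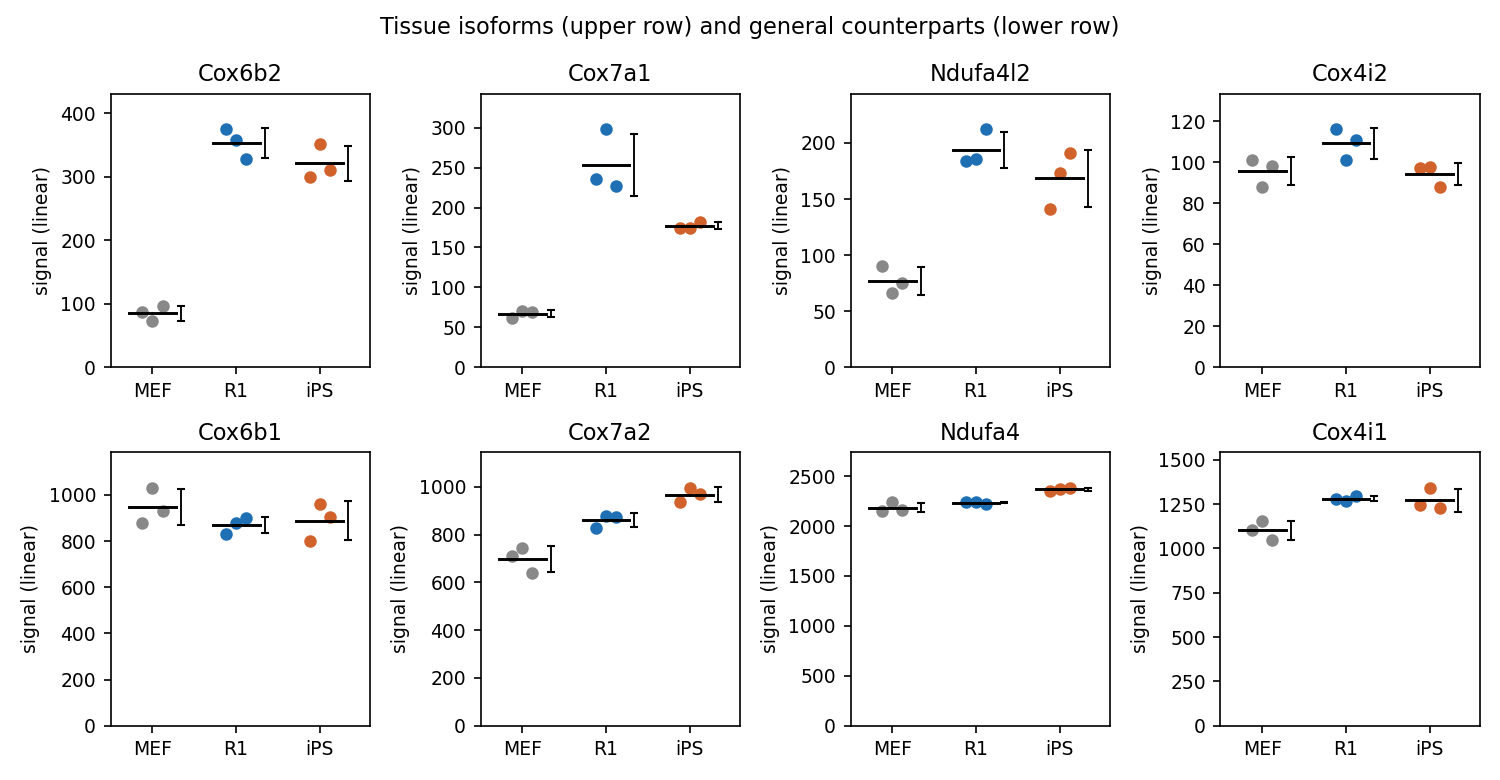
Linear signal in each of the 9 arrays for 4 isoforms known from particular tissues or conditions (upper row) and their general counterparts (lower row), with points for arrays, bars for the group mean and whiskers for the SD of 3 arrays; each panel has its own axis from 0. MEF arrays are the lowest for Cox6b2, Cox7a1 and Ndufa4l2, while the MEF arrays overlap with those of both lines for Cox6b1 and Cox4i2.

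The sequences before the start sites of both isoform pairs are shown because Cox6b2 and Cox7a1 carried the largest changes of the set and their general counterparts did not. Each run gives the 250 bases before the start, 5′ to 3′ on the strand of the gene, from RefSeq on build GRCm38.p6: chr7:4753095-4753344 (minus strand) for Cox6b2, chr7:30626115-30626364 (minus) for Cox6b1, chr7:30183921-30184170 (plus) for Cox7a1 and chr9:79759854-79760103 (minus) for Cox7a2. Capitals mark matches, on either strand, to the NRF1 palindrome or to any of CCGGAAGT (ETS factors such as GABPA), AAGATGGC (YY1), CCAAT (NF-Y), GGGCGG (Sp1), TGACGTCA (CRE) and TCAAGGTCA (ERR).
Cox6b2: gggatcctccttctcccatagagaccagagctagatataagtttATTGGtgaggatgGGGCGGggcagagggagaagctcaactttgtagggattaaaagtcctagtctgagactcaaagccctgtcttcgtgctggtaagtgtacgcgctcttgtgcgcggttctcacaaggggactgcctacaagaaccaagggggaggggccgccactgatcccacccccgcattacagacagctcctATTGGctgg
Cox6b1: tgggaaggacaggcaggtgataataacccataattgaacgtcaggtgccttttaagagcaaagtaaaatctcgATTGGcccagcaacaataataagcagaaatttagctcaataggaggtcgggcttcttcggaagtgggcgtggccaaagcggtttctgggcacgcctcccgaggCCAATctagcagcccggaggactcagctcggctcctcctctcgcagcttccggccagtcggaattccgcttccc
Cox7a1: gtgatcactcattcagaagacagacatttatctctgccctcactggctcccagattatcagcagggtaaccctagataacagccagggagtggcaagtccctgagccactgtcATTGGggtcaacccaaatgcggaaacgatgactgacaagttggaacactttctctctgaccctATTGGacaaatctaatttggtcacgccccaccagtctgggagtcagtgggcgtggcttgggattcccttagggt
Cox7a2: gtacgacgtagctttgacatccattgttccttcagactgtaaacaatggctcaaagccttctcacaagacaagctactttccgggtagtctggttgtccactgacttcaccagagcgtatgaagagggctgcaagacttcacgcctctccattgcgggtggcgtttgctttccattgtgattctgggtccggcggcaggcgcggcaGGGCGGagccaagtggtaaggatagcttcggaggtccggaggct
Cox6b2 held 3 matches, 2 of them to CCAAT on the opposite strand, 1 of these at 9 to 5 bases before the start, and 1 to GGGCGG. Cox6b1 and Cox7a1 held 2 matches each, all to CCAAT, and Cox7a2 held 1, to GGGCGG. None of these matches overlapped another. A match is a description of letters and not a binding site.

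Over windows of 300 bases, which reach 50 bases past the start, 72 of the 88 members had an entry among 17492 protein-coding genes, and a gene counted if any of its starts held the motif on either strand. The NRF1 letters were in 9.72% of the members and 1.47% of the coding genes, and the ERR letters in 2.78% and 0.377%. The YY1 letters were in 13.9% and 3.57%, CRE in 5.56% and 2.54%, ETS in 6.94% and 5.69%, CCAAT in 44.4% and 42.3%, and GGGCGG in 44.4% and 49.2%. The 7 members with the NRF1 letters were Atp5g2, Atp5k, Cox6a1, Ndufa11, Ndufaf4, Ndufaf5 and Uqcrc1. The 10 with the YY1 letters were Atp5j, Atp5j2, Atp5pb, Ndufa3, Ndufa9, Ndufb8, Ndufc1, Ndufs4, Ndufs6 and Ndufs7. Against MEF, Atp5j2 and Ndufs6 rose in both lines, Ndufc1 rose and Ndufa3 fell in R1 cells alone, and the others did not pass. The part of the letters in these results was not tested.

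Complex V makes ATP from the proton gradient. Of its 17 genes 9 rose and 1 fell in iPS cells and 8 rose and 1 fell in R1 cells, and no difference reached 0.5. Atp5a1, the alpha subunit of the catalytic head, had signals of 4738, 4804 and 4905 in MEF, 5595, 5518 and 5595 in R1, and 5673, 5997 and 5793 in iPS arrays. The groups did not overlap, and Atp5a1 rose by 0.27 ± 0.04 in iPS cells (adjusted p = 0.000298) and by 0.21 ± 0.04 in R1 cells (adjusted p = 0.00168). Atp5b, the catalytic beta subunit, rose by 0.15 ± 0.04 and 0.18 ± 0.04, results that did not pass in 3 and 1 of 15 alternatives. The gene that fell in both lines was Atp5d, which encodes the delta subunit of the central stalk, at -0.18 ± 0.05 (adjusted p = 0.0105) and -0.25 ± 0.05 (adjusted p = 0.00109), while Atp5e, its partner in the stalk, rose by 0.36 ± 0.06 in iPS cells and by 0.20 ± 0.06 in R1 cells, the latter not passed in 5 of 15 alternatives.

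The membrane ring of the ATP synthase consists of subunit c, which 3 genes encode with the same mature protein. Atp5g1 had signals of 572.1, 596.3 and 588.1 in MEF, 754.8, 754.8 and 781.4 in R1, and 744.4, 891.4 and 786.9 in iPS arrays, and rose by 0.45 ± 0.06 (adjusted p = 0.000195) in iPS and 0.37 ± 0.06 (adjusted p = 0.000659) in R1 cells. Atp5g2 rose by 0.25 ± 0.06 and 0.30 ± 0.06. Atp5g3, with signals of 1978 to 2195 over all arrays, was at -0.08 ± 0.05 and 0.003 ± 0.05 and did not pass. Atp5j2, a small subunit of the membrane part, rose by 0.34 ± 0.06 and 0.44 ± 0.06.

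Between the pluripotent lines 8 members passed. Of the 88 members 4 were higher in iPS cells and 4 lower, where 4.12% and 4.40% of all genes were, and 5.67% and 6.10% of genes with a mean signal of 50 or more. The arrays did not overlap for 26 members (29.5%), beside 21.9% of all genes and 3955 of the 13944 genes with a mean signal of 50 or more. At the 2-fold threshold 0 members were called in limma's test, where 0.461% of genes were (0.296% higher and 0.166% lower, and 0.631% of those with a mean signal of 50 or more), and every difference lay between -0.47 and 0.33. The members higher in iPS cells were Ndufa3, Sdha, Sdhd and Uqcrb, and the members lower were Cox7a1, Cox7a2l, Sdhb and Sdhc. Ndufa3, an accessory subunit of complex I, was at 522.8, 487.8 and 512 in MEF, 364.6, 377.4 and 385.3 in R1, and 448.8, 519.1 and 461.4 in iPS arrays. R1 stood below the other groups, which overlapped, and Ndufa3 was higher in iPS than in R1 cells by 0.33 ± 0.06 (adjusted p = 0.0104).

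Other genes of the pathway were counted in lists. The shares to set beside these counts are those over all genes, 24.8% rising and 23.2% falling in iPS cells. In R1 cells they were 25.9% and 23.0%. Among genes with a mean signal of 50 or more, 33.4% rose and 30.9% fell in iPS cells, and 34.8% and 30.6% in R1 cells. Of 34 further assembly factors measured, 12 rose and 5 fell in iPS cells and 15 rose and 3 fell in R1 cells. Lrpprc, which stabilises mitochondrial messenger RNA, rose by 0.76 ± 0.06 and 0.81 ± 0.06, and the copper chaperone of complex IV, Sco1, by 0.67 ± 0.06 and 0.84 ± 0.06. Tmem70, an assembly factor of the ATP synthase and the gene of this list with a 2-fold call, fell by 1.09 ± 0.08 and 1.11 ± 0.08, from a signal of 572.9 in MEF to 261.6 in iPS and 257.1 in R1 arrays. Of 15 electron carriers and ubiquinone enzymes 6 rose and 2 fell in iPS cells and 9 rose and 2 fell in R1 cells, with the glycerophosphate dehydrogenase Gpd2 higher by 0.73 ± 0.05 and 0.70 ± 0.05 and the ubiquinone enzyme Coq2 lower (-0.63 ± 0.06 and -0.33 ± 0.06). Cytochrome c itself, Cycs, was at -0.06 ± 0.09 and -0.12 ± 0.09 and did not pass.

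Of 13 genes of the TCA cycle 8 fell and 3 rose in iPS cells, with a median of -0.27, and 5 fell and 4 rose in R1 cells, with a median of -0.13. Idh2 fell by 0.94 ± 0.06 and 0.87 ± 0.06, Dlst, a subunit of the oxoglutarate dehydrogenase complex, by 0.74 ± 0.05 and 0.56 ± 0.05, and citrate synthase, Cs, by 0.33 ± 0.05 in both. Suclg2, the GTP-specific subunit of succinyl-CoA ligase, rose by 0.70 ± 0.04 and 0.91 ± 0.04, while Sucla2, its ATP-specific counterpart, fell in iPS cells (-0.35 ± 0.05, adjusted p = 0.00033) and was at -0.13 ± 0.05 in R1 cells (adjusted p = 0.08).

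Of 77 genes of the mitochondrial ribosome 49 rose and 6 fell in iPS cells and 52 rose and 4 fell in R1 cells, with medians of 0.35 and 0.34. Mrpl45 rose by 1.37 ± 0.07 and 1.32 ± 0.07, Mrpl15 by 1.17 ± 0.06 and 1.35 ± 0.06, Mrps31 by 1.11 ± 0.08 and 1.42 ± 0.08 and Mrpl24 by 1.03 ± 0.05 and 1.01 ± 0.05. Of 19 regulators of mitochondrial biogenesis and of mitochondrial DNA 13 rose and 3 fell in iPS cells and 14 rose and 1 fell in R1 cells. Tfb1m, which methylates mitochondrial ribosomal RNA, rose by 1.42 ± 0.11 and 1.59 ± 0.11, Tfam, which packages mitochondrial DNA, by 1.22 ± 0.08 and 0.77 ± 0.08, the single-strand binding protein Ssbp1 by 1.16 ± 0.04 and 1.19 ± 0.04, and Tefm by 1.06 ± 0.09 and 0.78 ± 0.09. Of the factors whose motif letters were counted above, Nrf1 rose by 0.56 ± 0.07 and 0.57 ± 0.07, Gabpa by 0.68 ± 0.06 and 0.97 ± 0.06 and Yy1 by 0.47 ± 0.06 and 0.52 ± 0.06. Esrra fell in iPS cells (-0.19 ± 0.07, adjusted p = 0.0395) and was at -0.07 ± 0.07 in R1 cells. Nrip1 fell in both lines (-0.574 ± 0.091 and -0.915 ± 0.091). Polg fell in iPS cells (-0.346 ± 0.055) and rose in R1 cells (0.208 ± 0.055). Its difference between iPS and R1 cells was -0.555 ± 0.055 (limma, adjusted p = 0.000494). The coactivator Ppargc1a, at mean signals of 16.5 to 20.6, did not pass.

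Of 10 nucleotide and proton carriers 4 rose and 2 fell in each line. Slc25a4, the ADP/ATP carrier of heart and muscle, fell by 0.60 ± 0.09 and 0.97 ± 0.09, Slc25a5, its widespread relative, rose by 0.32 ± 0.04 and 0.27 ± 0.04, and Slc25a31, the relative known from testis, rose by 0.79 ± 0.13 and 1.11 ± 0.13, from a signal of 21.8 in MEF to 49.9 in iPS and 66.3 in R1 arrays. The skeletal muscle markers in MEF stand beside the change of Slc25a4, and their part in it was not tested.

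**Figure D4:**
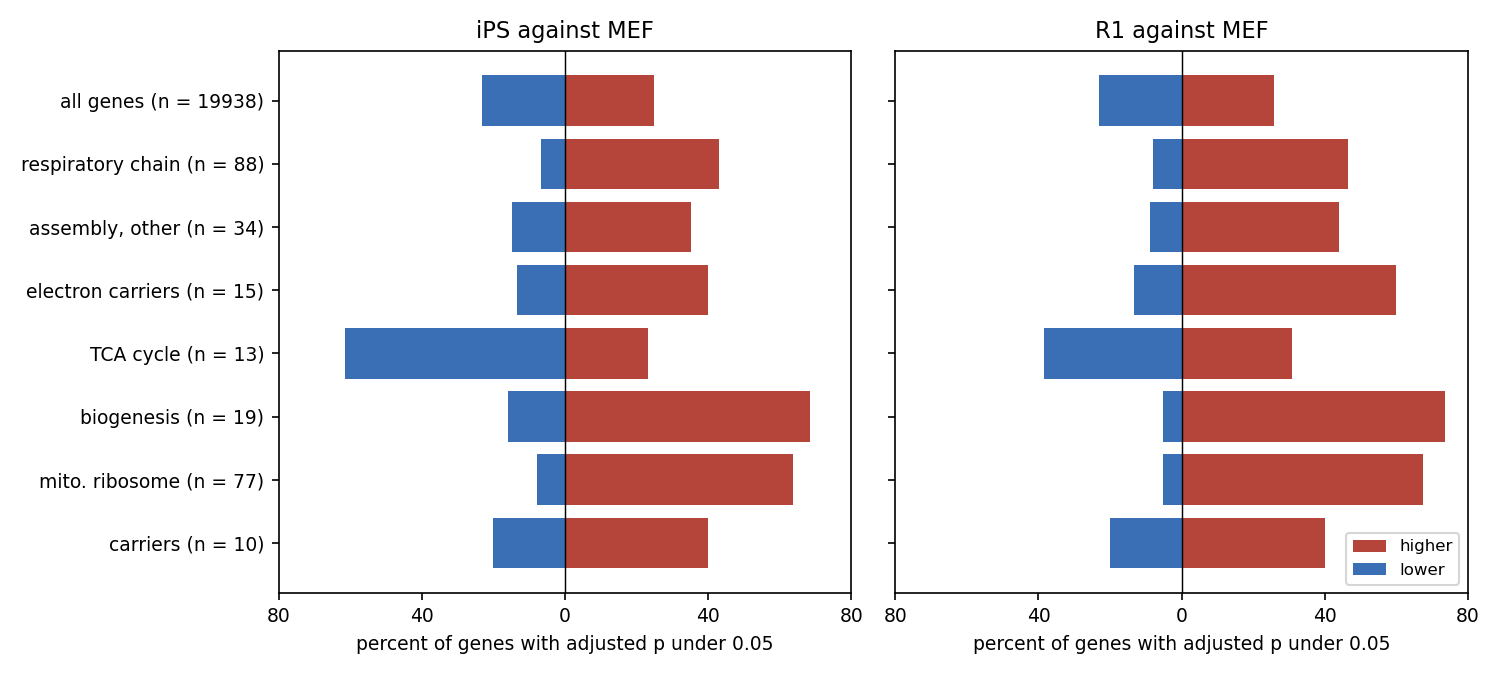
Percent of genes with an adjusted p under 0.05 that were higher (right of 0) or lower (left of 0) in iPS cells and in R1 cells against MEF, for all genes, the 88 respiratory chain genes and 6 further lists, with the number of genes measured in each. The bars to the right are longest for the biogenesis and mitochondrial ribosome lists, and the bar to the left is longest for the TCA cycle in iPS cells.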

How the data were processed

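Each deposited value is the intensity of a probe set on an array, on a linear scale. The submitters' processing notes name GCOS 1.4 without its role, and how the authors corrected background, summarized probes and normalized is not given in the sources used here. Array medians were close, so the values were used as deposited, as log2(signal + 16), which understates differences of dim genes. The platform annotation gave a single gene symbol to 21789 of 35557 probe sets, several to 1621, and did not list 12147. Of the single-symbol sets, 21698 were found in a RefSeq table of GRCm38.p6, which altered 0 symbols. The 88 members had 112 probe sets, and 6 probe sets with a member's symbol beside another symbol, among them those of Cox7c and Ndufb4, were left out.

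Group means were fitted once over the 9 arrays with limma 3.58.1 in R 4.3.3 (lmFit, then eBayes). Benjamini-Hochberg adjustment ran over 19938 genes. "Rose" and "fell" mean an adjusted p under 0.05. A 2-fold call also needs a log2 difference of 1 or more. Values after ± are standard errors of the fit. The number of arrays, 3 per group, limits the precision. The 15 alternatives were 6 settings (quantile normalization, equal array medians, a pseudocount of 1, dim genes left out, the mean of all probe sets, a block for the replicate number) and omitting each of the 9 arrays in turn. The script was tested on simulated data.

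The members and lists were chosen with earlier results of these data known. Named by rule were members called at 2-fold, core subunits, complex II, isoform pairs, subunit c genes, the largest changes of each complex and the differences between iPS and R1 cells, and in the other lists up to 4 genes called at 2-fold. Other genes were chosen after their values were seen. These were Ndufa6, Ndufa7, Ndufc2, Ndufv3, the Ndufaf genes, Cox5a, Cox6c, Uqcrq, Uqcrh, Atp5a1, Atp5b, Atp5j2, Atp5l, and the pathway genes without a 2-fold call.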

Additional observations from a re-analysis of the deposited data

Results flagged for a closer look

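The change against MEF differed between iPS and R1 cells for 8 members, by the test of the difference itself (limma, adjusted p under 0.05 over all genes). That is 9.09% of the members, beside 8.52% of all genes, so the count was near the share over all genes. Of genes with a mean signal of 50 or more, 5.67% were higher and 6.10% lower in iPS cells. On the log2 scale, iPS minus R1, the values were 0.33 for Ndufa3, 0.30 for Sdhd, 0.28 for Sdha, 0.28 for Uqcrb, -0.17 for Sdhb, -0.17 for Cox7a2l, -0.43 for Sdhc and -0.47 for Cox7a1. Those of Ndufa3, Sdha, Sdhd, Sdhc and Cox7a1 passed in all 15 alternatives.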

How the results depend on the processing

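Over the 15 alternatives, 1722 of 1842 values of named members stayed on their side of the threshold, 97 no longer passed and 23 newly passed. The sign changed in 42 values, over 21 pairs of a member and a comparison (Cox6a2 and Cox8b against MEF among them); none of these passed with either sign, and all were at most 0.059 in size. The counts over the other pathway lists stayed within 1.5 times against MEF in the 15 alternatives, while 27 of 90 counts moved further in iPS against R1 cells. Of the members that rose, 28 of 38 in iPS cells and 32 of 41 in R1 cells against MEF passed in every alternative, as did 6 of 6 and 6 of 7 of those that fell. With single arrays omitted, between 37 and 46 members passed in iPS cells, 40 and 51 in R1 cells and 5 and 7 in iPS against R1 cells, and 2-fold calls for 2 to 3, 3 to 3 and 0 to 0 members. In iPS against R1 cells 8 passed, but 5 with a pseudocount of 1, 5 with equal array medians, and 5 without MEF replicate 1, MEF replicate 3, R1 replicate 1, R1 replicate 3, iPS replicate 2 or iPS replicate 3; the cause was not tested. Deviations of same-numbered arrays from their group means had correlations from -0.08 to 0.25. Differently numbered arrays were not compared, so this does not settle whether the replicate numbers pair the arrays. With the replicate number as a block 44, 51 and 7 members passed in the comparisons of iPS with MEF, R1 with MEF and iPS with R1. Ndufa4l2 in iPS against MEF reached 2-fold with a pseudocount of 1 and without MEF replicate 1 or iPS replicate 1 (1.09 to 1.12). With equal array medians, the median difference of complex V was 0.09 in iPS and 0.10 in R1 cells against MEF and that of complex II -0.02 and -0.06. Dim signals, without detection calls, limit what Cox7b2, Cox8b and Ppargc1a can show.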

Other observations

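Of the genes of mitochondrial DNA, which lie outside the rule, 2 had probe sets with 1 symbol, and they were chosen after their values were seen. COX2, which encodes a catalytic subunit of complex IV, had signals of 7486, 7750 and 7132 in MEF, 7643, 8364 and 8023 in R1, and 8023, 8192 and 8135 in iPS arrays, with log2 differences against MEF of 0.12 and 0.10 that did not pass in limma's test (adjusted p = 0.0712 and 0.125). ND3, of the membrane arm of complex I, had signals of 3717, 3848 and 3350 in MEF, 3236, 4040 and 3717 in R1, and 4040, 4390 and 4421 in iPS arrays, with differences of 0.24 in iPS cells (adjusted p = 0.0467) and 0.007 in R1 cells (adjusted p = 0.965).

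Of the 88 members 16 had several probe sets, and for 0 of them did another probe set differ in the opposite direction by 0.3 or more. The median absolute difference of the members against MEF was 0.16 in iPS and 0.20 in R1 cells, so this check could seldom fail. Sizes could differ between probe sets, as for Cox7a2l in R1 cells against MEF (0.25 and 0.11). The 6 probe sets of Atp5l gave differences of 0.23 to 0.26 in iPS cells against MEF. The 3 of Uqcrb gave 0.27 to 0.28 in iPS against R1 cells.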
